A study of Mus musculus with 12 samples.

Results

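Cdkn2a, Trp53 and 7 genes that p53 is known to switch on (Mdm2, Cdkn1a, Ccng1, Bbc3, Phlda3, Zmat3 and Trp53inp1) were followed across tumour cells, neural stem cells and astrocytes of the mouse. The 9 genes were taken by their symbols from tables that held 53932 gene identifiers, and all 9 were among the 16982 genes expressed highly enough to be tested. RNA sequencing of total RNA gave 1 value per gene and library in FPKM, that is, fragments scaled to transcript length and to the mapped fragments of the library. There were 12 libraries, 3 in each of 4 groups, all of strain C57BL/6. Glioblastoma was a primary tumour line labelled with cerebella and age E18.5. How this tumour line was made, and which alleles it carries, is not given in the labels, and it is 1 line. No level of EGF, FGF2 or serum is recorded for it. Tumour state, labelled tissue, age and line differ together between Glioblastoma and the other groups, so they cannot be told apart. MIM-Astrocytes, labelled with cortex and E14.5, were astrocytes moved from serum medium to MIM, a serum-free medium with FGF2 at 20 ng/mL and up to 6 metabolites, namely 4 amino acids (glycine, cysteine, methionine and threonine), the polyamine putrescine and the methyl donor S-adenosylmethionine. Which of these the libraries received, and for how many days, is not given. NSC were neural stem cells of the E14.5 cortex, cultured as floating spheres in medium with the growth factors EGF and FGF2, each at 20 ng/mL. Astrocytes were kept in medium with 10% serum and are labelled with cortex and E14.5, although the protocol describes both astrocytes sorted from postnatal pups and astrocytes differentiated from neurospheres. Nothing in the labels ties the replicates to separate cultures or animals, so p-values measure the spread between libraries, which may be technical.

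The Cdkn2a locus encodes a pair of unrelated proteins from transcripts with different first exons. The Ink4a product inhibits the kinases Cdk4 and Cdk6 and so keeps the retinoblastoma protein active. The Arf product binds Mdm2, the ubiquitin ligase that removes p53, and thereby lets p53 accumulate. p53 itself is controlled mostly at the protein level, and it acts by switching on genes that halt the cell cycle, limit growth signalling or start apoptosis. Cdkn2a and Trp53 are among the genes most often lost or mutated in human glioma. The comparisons ask whether the targets stood high where Trp53 and Cdkn2a stood high, which was in the tumour cells.

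The windows around the starts of 4 transcripts are printed as background, and no expression result below uses their sequence. The first pair are the starts of Arf and Ink4a, whose transcripts share later exons and are covered by a single Cdkn2a value. The second pair belong to Cdkn1a and Ccng1, targets that moved in opposite directions in the tumour cells relative to neural stem cells. Each window runs from 250 bases before to 50 bases after a transcript start of RefSeq on GRCm38.p6, and capitals mark matches to the p53 decamer, a motif of 10 bases of which a full p53 binding element holds a pair.
Cdkn2a, upstream start (Arf), chr4:89294570-89294869, minus strand: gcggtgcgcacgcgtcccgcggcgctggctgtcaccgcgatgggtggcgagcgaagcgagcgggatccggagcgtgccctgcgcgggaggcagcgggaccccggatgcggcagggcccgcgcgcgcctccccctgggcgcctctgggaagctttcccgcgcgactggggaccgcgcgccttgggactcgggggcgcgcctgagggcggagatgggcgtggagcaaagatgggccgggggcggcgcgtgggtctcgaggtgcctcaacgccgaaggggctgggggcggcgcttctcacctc
Cdkn2a, downstream start (Ink4a), chr4:89282143-89282442, minus strand: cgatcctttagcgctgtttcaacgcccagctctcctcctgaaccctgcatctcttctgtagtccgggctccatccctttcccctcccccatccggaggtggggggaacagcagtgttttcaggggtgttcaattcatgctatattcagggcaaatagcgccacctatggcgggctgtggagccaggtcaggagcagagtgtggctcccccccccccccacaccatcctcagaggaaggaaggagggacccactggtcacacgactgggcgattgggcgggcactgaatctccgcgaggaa
Cdkn1a, upstream start, chr17:29090729-29091028, plus strand: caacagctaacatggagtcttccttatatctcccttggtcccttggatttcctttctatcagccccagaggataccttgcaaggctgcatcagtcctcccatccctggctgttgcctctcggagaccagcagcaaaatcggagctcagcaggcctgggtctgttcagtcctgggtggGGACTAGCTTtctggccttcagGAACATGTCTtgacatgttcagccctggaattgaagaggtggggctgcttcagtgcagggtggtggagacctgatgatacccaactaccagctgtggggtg
Ccng1, chr11:40755237-40755536, minus strand: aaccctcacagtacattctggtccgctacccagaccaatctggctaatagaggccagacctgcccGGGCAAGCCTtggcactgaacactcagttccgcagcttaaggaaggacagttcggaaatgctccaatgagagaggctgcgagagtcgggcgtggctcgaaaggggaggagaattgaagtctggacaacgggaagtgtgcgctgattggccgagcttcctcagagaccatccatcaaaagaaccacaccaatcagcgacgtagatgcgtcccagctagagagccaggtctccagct

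The Arf window was the richer in G and C, at 77.0%, against 60.3% in the Ink4a window, and neither held a p53 decamer. The printed Cdkn1a window held 2, GGACTAGCTT and GAACATGTCT, and the Ccng1 window held 1, GGGCAAGCCT. The 2 in the Cdkn1a window did not adjoin each other, and whether they act as a pair was not tested. Another Cdkn1a window, at a downstream start and not printed, held no decamer. The promoter table matched 7 of the 9 genes with 11 windows in all, leaving out Zmat3 and Trp53inp1. Searched on both strands, a decamer was found in 4 of the 11 windows, the other 2 being those of Mdm2 (GAACTTGCCT) and of Trp53 itself (GGACTTGCCC), against 8.36% of all 32851 promoter windows in the table. Cdkn2a, Cdkn1a and Bbc3 had more than 1 window each, and 2 of those of Bbc3 overlap. The 11 windows are thus not independent, and their share was not tested against that of all promoters. These matches are letters in a window of 300 bases and were not measured as binding.

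Facts of the whole set that touch these genes are as follows. Between 14461 and 14919 genes per library reached 1 FPKM. The deposited tables hold no counts, so depth is not known, and the authors' interval extended by 3.65% to 17.0% around the values of the 9 genes. Correlations across genes were 0.968 to 0.977 within groups and 0.731 to 0.928 between them. FPKM values summed to 812100 to 979100 in Glioblastoma, 665400 to 795300 in MIM-Astrocytes, 734200 to 812400 in NSC and 514700 to 623800 in Astrocytes, so small differences depend on how libraries are scaled. Protein-coding genes held 42.6% to 48.1% of that sum in Glioblastoma and 47.5% to 51.7% in MIM-Astrocytes. Their share was 39.8% to 45.9% in NSC and 56.3% to 63.3% in Astrocytes. Of 6 astrocyte markers, 2 were higher in MIM-Astrocytes than in Astrocytes, 2 lower and 2 not called, near the shares of all genes (34.8% higher, 26.6% lower). The filament gene Gfap averaged 7.35 FPKM in MIM-Astrocytes and 258 FPKM in Astrocytes, and the glutamate transporter gene Slc1a3 averaged 860.0 FPKM in MIM-Astrocytes and 396 FPKM in Astrocytes. The glial progenitor factors Olig2 and Sox2 averaged 105 and 136 FPKM in Glioblastoma, and 104 and 104 FPKM in NSC. Of 5 glioma markers, 1 was higher in Glioblastoma than in NSC, 2 were lower and 2 not called. The 2 lower ones were Egfr (12.8 FPKM in Glioblastoma against 170 FPKM in NSC) and Pdgfra (10.3 against 24.4 FPKM). Of 6 neural stem cell markers, 2 were higher in Glioblastoma than in NSC and 4 lower. Of 6 astrocyte markers, 1 was higher in that comparison and 5 lower. Of all tested genes, 44.8% were higher and 25.1% lower. In Glioblastoma, 5 markers of the cerebellar granule lineage, a cell type of the labelled tissue, summed to 0.158 to 0.268 FPKM. In the groups labelled with cortex they summed to more, mostly through Zic1 (10.8 to 18.3 FPKM in MIM-Astrocytes, 22.5 to 27.0 FPKM in NSC, 14.1 to 17.0 FPKM in Astrocytes). Microglial, endothelial and meningeal marker lists of 5, 4 and 5 genes summed to at most 1.23, 1.88 and 4.12 FPKM in any library, each highest in Astrocytes.

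Cdkn2a was the member that differed most in the tumour cells. The gene (ENSMUSG00000044303.6, GRCm38 chromosome 4, 89274471 to 89294653, minus strand) stood at 106, 107 and 114 FPKM in Glioblastoma. It stood at 5.01, 5.61 and 5.47 FPKM in MIM-Astrocytes, at 9.54, 8.73 and 7.43 FPKM in NSC, and at 9.19, 10.7 and 8.66 FPKM in Astrocytes. All 3 tumour libraries thus lay far above the other 9, and the MIM-Astrocytes libraries lay below all libraries of the other groups. The mean was 109 ± 4.35 FPKM in Glioblastoma against 8.57 ± 1.06 FPKM in NSC (SD, n = 3 each), which is 12.7-fold higher (log2 difference 3.53, SE 0.09, adjusted p = 3.8e-10 by limma). The difference here and below is of log2(FPKM + 1), a scale that understates changes of weakly expressed genes, and p-values were adjusted over all 16982 genes by Benjamini and Hochberg. Against Astrocytes, at 9.51 ± 1.04 FPKM, Cdkn2a was 11.4-fold higher in Glioblastoma (log2 difference 3.39, adjusted p = 1.73e-10 by limma). Against MIM-Astrocytes, at 5.36 ± 0.32 FPKM, it was 20.3-fold higher (log2 difference 4.11, adjusted p = 1.25e-10 by limma). In bulk libraries, more RNA per cell and more cells that express a gene cannot be told apart.

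Because the value is given per gene, Arf and Ink4a transcripts cannot be told apart in it. MIM-Astrocytes held less Cdkn2a than Astrocytes, by a log2 difference of -0.72 (SE 0.09, adjusted p = 6.46e-05 by limma), and less than NSC, by -0.58 (adjusted p = 0.000373 by limma). NSC and Astrocytes overlapped and were not separated by the test (log2 difference -0.14, adjusted p = 0.208 by limma). That last value passed the test under 2 other scalings, at -0.19 with median-of-ratios scaling (adjusted p = 0.0221) and -0.50 with a common FPKM total (adjusted p = 0.000801). The order of the levels was Glioblastoma, then Astrocytes and NSC, whose difference passed the test under those 2 scalings and not in the values as deposited, then MIM-Astrocytes.

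Trp53, which encodes p53 (ENSMUSG00000059552.13, chromosome 11, 69580359 to 69591873, plus strand), was also highest in the tumour cells, with a smaller difference. Its level was 16.4, 17.0 and 16.9 FPKM in Glioblastoma. It was 5.33, 6.45 and 6.76 FPKM in MIM-Astrocytes, 7.66, 8.20 and 6.81 FPKM in NSC, and 6.29, 5.80 and 5.82 FPKM in Astrocytes. The tumour libraries again lay above all others, while the other 9 libraries lay between 5.33 and 8.20 FPKM. Trp53 averaged 16.8 ± 0.33 FPKM in Glioblastoma and 7.56 ± 0.70 FPKM in NSC, a 2.22-fold difference (log2 difference 1.06, SE 0.08, adjusted p = 1.14e-06 by limma). The fold was 2.81 against Astrocytes (5.97 ± 0.27 FPKM, log2 difference 1.35, adjusted p = 9.52e-08 by limma) and 2.71 against MIM-Astrocytes (6.18 ± 0.75 FPKM, log2 difference 1.31, adjusted p = 2.22e-07 by limma). The pseudogene Trp53-ps was listed at 0 in all libraries.

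MIM-Astrocytes and Astrocytes overlapped in Trp53 (log2 difference 0.04, adjusted p = 0.718 by limma). MIM-Astrocytes lay below NSC by a log2 difference of -0.26 (adjusted p = 0.0234 by limma). That call ended without MIM-Astrocytes replicate 1 (-0.17, adjusted p = 0.075), without NSC replicate 1 (-0.25, adjusted p = 0.0623) and without NSC replicate 2 (-0.20, adjusted p = 0.0886). It also ended with a common FPKM total (-0.20, adjusted p = 0.0724) and in a fit of the 6 libraries compared (-0.26, adjusted p = 0.0902). NSC lay above Astrocytes by 0.29 (adjusted p = 0.00892 by limma), a difference that turned to -0.06 with a common FPKM total.

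**Figure D1:**
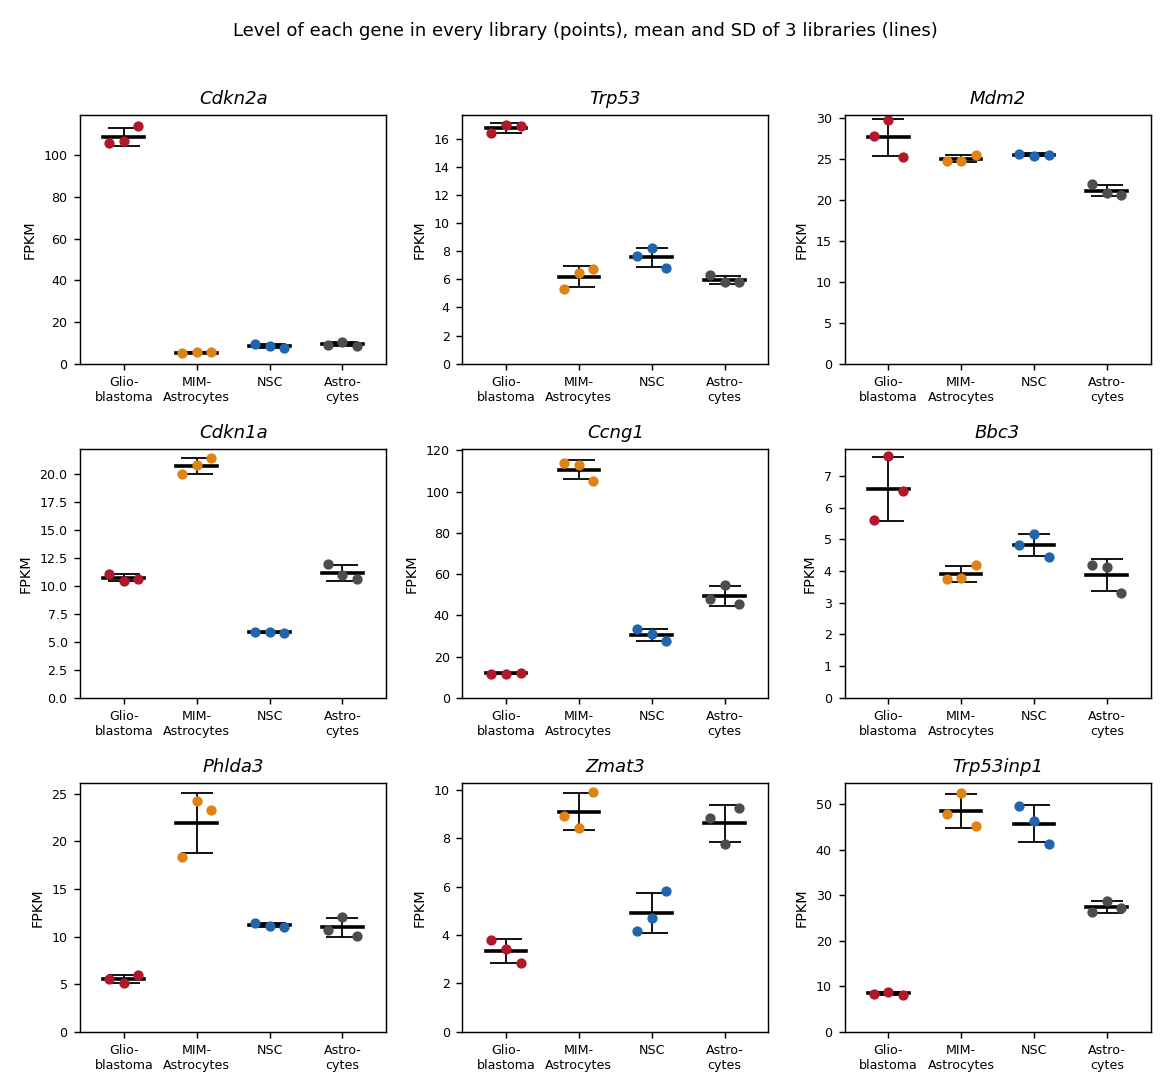
FPKM of each of the 9 genes in every library, 1 panel per gene, with the groups on the horizontal axis, a point per library, a bar at the mean and whiskers for the SD of 3 libraries. Cdkn2a and Trp53 stand highest in Glioblastoma (means of 109 and 16.8 FPKM), whereas Ccng1, Phlda3, Zmat3 and Trp53inp1 stand lowest there (means of 11.8, 5.54, 3.34 and 8.42 FPKM).

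Against NSC, 8 of the 9 genes passed the test in Glioblastoma, where 69.9% of all tested genes did, and the groups did not overlap in these 8, as in 75.0% of all. Both Cdkn2a and Trp53 were higher. Of the 7 targets, 2 were higher, 4 were lower and 1 was not called, while 44.8% of all genes were higher and 25.1% lower. The median log2 difference was -0.44 over the 7 targets and 0.19 over all tested genes. Against Astrocytes, 8 of the 9 genes passed (78.3% of all genes) without overlap of the groups (79.9% of all), with 2 targets higher, 4 lower and 1 not called, where 47.0% of all genes were higher and 31.3% lower. The median was -0.87 over the targets and 0.23 over all genes. Against MIM-Astrocytes, 8 of the 9 genes passed (69.8% of all genes) without overlap (74.5% of all), with 1 target higher, 5 lower and 1 not called, where 41.5% of all genes were higher and 28.3% lower, and the median was -1.22 over the targets and 0.13 over all genes. In each of the 3 comparisons Cdkn2a and Trp53 were higher while more targets were lower than higher. The comparisons share the Glioblastoma libraries, so their counts are not independent of each other. Under other scalings the median of all genes in these comparisons fell by 0.11 to 0.49. The split of the targets against Astrocytes became 1 higher and 5 lower (median-of-ratios or quantile) or 0 higher and 5 lower (common total). Against NSC the split became 1 higher and 4 lower under median-of-ratios scaling and a common total, and 1 higher and 5 lower under quantile normalization.

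**Figure D2:**
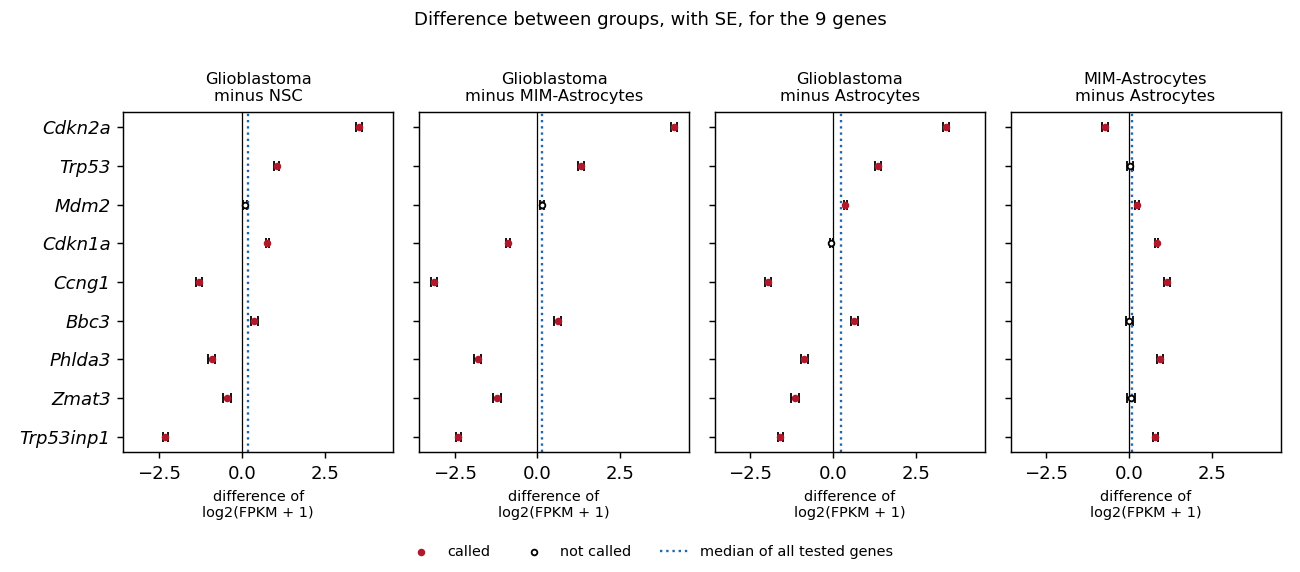
Difference of log2(FPKM + 1) between groups (horizontal axis) for the 9 genes (vertical axis) in 4 comparisons, with SE bars. Filled points passed an adjusted p of 0.05, open points did not, and the dotted line is the median of all tested genes. In the 3 Glioblastoma panels Cdkn2a and Trp53 lie to the right while Ccng1, Phlda3, Zmat3 and Trp53inp1 lie to the left of 0, and in the fourth panel Cdkn2a lies to the left and Cdkn1a, Ccng1, Phlda3 and Trp53inp1 to the right.

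Among the targets, Mdm2 was the steadiest across the groups. It encodes the ubiquitin ligase that removes p53 and closes a negative feedback loop (ENSMUSG00000020184.15, chromosome 10, 117688875 to 117710758, minus strand). Its level was 27.9, 29.8 and 25.3 FPKM in Glioblastoma, 24.8, 24.8 and 25.5 FPKM in MIM-Astrocytes, 25.7, 25.4 and 25.6 FPKM in NSC, and 21.9, 20.9 and 20.7 FPKM in Astrocytes. Glioblastoma overlapped with NSC and with MIM-Astrocytes, and the Astrocytes libraries lay below all others. Mdm2 averaged 27.7 ± 2.26 FPKM in Glioblastoma and 25.6 ± 0.13 FPKM in NSC (log2 difference 0.11, SE 0.06, adjusted p = 0.117 by limma). Against MIM-Astrocytes the difference was 0.14 (adjusted p = 0.0536 by limma). Both values passed the test without Glioblastoma replicate 3 (0.17, adjusted p = 0.015, and 0.20, adjusted p = 0.00675) and had the opposite sign under all 3 other scalings. Under quantile normalization Mdm2 was called lower in Glioblastoma than in NSC (-0.20, adjusted p = 0.0357), and with array weights it was called higher than in MIM-Astrocytes (0.13, adjusted p = 0.0435). Against Astrocytes, at 21.2 ± 0.66 FPKM, Mdm2 was higher by 0.37 (adjusted p = 0.00014 by limma), a call that ended under the 3 scalings (0.08, 0.10 and -0.23). The differences of MIM-Astrocytes and of NSC from Astrocytes, 0.23 and 0.26, likewise lost their calls under 3 scalings and 1 scaling. No direction for Mdm2 thus held under every scaling tried.

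Cdkn1a encodes p21, the cyclin-dependent kinase inhibitor through which p53 halts the cell cycle (ENSMUSG00000023067.13, chromosome 17, 29090979 to 29100722, plus strand). Its level was 11.1, 10.5 and 10.7 FPKM in Glioblastoma, 20.0, 20.8 and 21.5 FPKM in MIM-Astrocytes, 5.93, 5.85 and 5.79 FPKM in NSC, and 12, 10.98 and 10.6 FPKM in Astrocytes. MIM-Astrocytes libraries were the highest and NSC libraries the lowest, with Glioblastoma and Astrocytes overlapping in between. Glioblastoma, at 10.7 ± 0.30 FPKM, was 1.83-fold above NSC at 5.86 ± 0.07 FPKM (log2 difference 0.77, SE 0.05, adjusted p = 2.8e-07 by limma). It was below MIM-Astrocytes at 20.8 ± 0.71 FPKM (log2 difference -0.89, adjusted p = 9.51e-08 by limma). Against Astrocytes at 11.2 ± 0.72 FPKM the difference was -0.05 (adjusted p = 0.338 by limma), which became a call at -0.33, -0.31 and -0.62 when libraries were scaled by the median of ratios, by quantiles or to a common total, and at -0.15 with array weights.

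Ccng1 encodes cyclin G1, a p53 target that works together with the phosphatase PP2A on Mdm2 (ENSMUSG00000020326.7, chromosome 11, 40748552 to 40755311, minus strand). It had the widest range of the 7 targets. Its level was 11.7, 11.6 and 12.2 FPKM in Glioblastoma, 114, 113 and 105 FPKM in MIM-Astrocytes, 33.1, 30.9 and 27.5 FPKM in NSC, and 47.8, 54.9 and 45.7 FPKM in Astrocytes. No group overlapped with another. Ccng1 averaged 11.8 ± 0.35 FPKM in Glioblastoma, against 30.5 ± 2.85 FPKM in NSC, where it was 2.57-fold higher (log2 difference -1.29, SE 0.08, adjusted p = 2.34e-07 by limma). The difference was -1.97 against Astrocytes at 49.5 ± 4.81 FPKM (adjusted p = 4.51e-09 by limma). It was -3.12 against MIM-Astrocytes at 111 ± 4.73 FPKM, a 9.34-fold higher level in MIM-Astrocytes (adjusted p = 3.48e-10 by limma).

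Bbc3 encodes PUMA, a BH3-only protein that triggers mitochondrial apoptosis (ENSMUSG00000002083.13, chromosome 7, 16308393 to 16318205, plus strand). It was the one target that was higher in Glioblastoma in all 3 comparisons. Its level was 5.61, 7.64 and 6.52 FPKM in Glioblastoma, 3.76, 3.77 and 4.21 FPKM in MIM-Astrocytes, 4.82, 5.16 and 4.46 FPKM in NSC, and 4.19, 4.14 and 3.31 FPKM in Astrocytes. The tumour libraries lay above all others by a narrow margin. Glioblastoma averaged 6.59 ± 1.02 FPKM against 4.81 ± 0.35 FPKM in NSC (log2 difference 0.38, SE 0.11, adjusted p = 0.0087 by limma), a call that ended under the 3 other scalings (0.17, 0.21 and 0.19). The difference was 0.63 against Astrocytes at 3.88 ± 0.49 FPKM (adjusted p = 0.000259 by limma) and 0.62 against MIM-Astrocytes at 3.91 ± 0.25 FPKM (adjusted p = 0.000393 by limma). The value against Astrocytes was 0.12 and lost its call with a common FPKM total.

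Phlda3 and Trp53inp1 were both low in the tumour cells. Phlda3 encodes a p53-induced inhibitor of Akt signalling (ENSMUSG00000041801.5, chromosome 1, 135766119 to 135769136, plus strand). Its level was 5.53, 5.09 and 5.99 FPKM in Glioblastoma, 18.4, 24.3 and 23.3 FPKM in MIM-Astrocytes, 11.4, 11.2 and 11.0 FPKM in NSC, and 10.7, 12.1 and 10.1 FPKM in Astrocytes. Glioblastoma lay below and MIM-Astrocytes above the other libraries, with NSC and Astrocytes overlapping (log2 difference 0.03, adjusted p = 0.807 by limma). With a mean of 5.54 ± 0.45 FPKM, Glioblastoma differed by -0.90 from NSC at 11.2 ± 0.21 FPKM (SE 0.10, adjusted p = 1.88e-05 by limma), by -0.87 from Astrocytes at 11.0 ± 1.03 FPKM (adjusted p = 1.69e-05 by limma) and by -1.81 from MIM-Astrocytes at 22.0 ± 3.15 FPKM (adjusted p = 9.22e-08 by limma).

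Trp53inp1 encodes a p53-induced nuclear protein that takes part in autophagy and in stress-induced cell death (ENSMUSG00000028211.11, chromosome 4, 11156431 to 11174379, plus strand). Its level was 8.26, 8.83 and 8.17 FPKM in Glioblastoma, 47.9, 52.4 and 45.2 FPKM in MIM-Astrocytes, 49.6, 46.4 and 41.3 FPKM in NSC, and 26.3, 28.8 and 27.2 FPKM in Astrocytes. The tumour libraries were the lowest, Astrocytes lay in between, and MIM-Astrocytes overlapped with NSC. Trp53inp1 averaged 8.42 ± 0.36 FPKM in Glioblastoma against 45.8 ± 4.16 FPKM in NSC, where it was 5.44-fold higher (log2 difference -2.31, SE 0.08, adjusted p = 1.91e-09 by limma). The difference was -1.59 against Astrocytes at 27.4 ± 1.22 FPKM (adjusted p = 1.34e-08 by limma) and -2.39 against MIM-Astrocytes at 48.5 ± 3.66 FPKM (adjusted p = 1.35e-09 by limma).

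Zmat3 encodes an RNA-binding zinc finger protein that p53 induces (ENSMUSG00000027663.12, chromosome 3, 32334792 to 32366014, minus strand). Its level was 3.79, 3.40 and 2.83 FPKM in Glioblastoma, 8.92, 8.42 and 9.92 FPKM in MIM-Astrocytes, 4.18, 4.70 and 5.81 FPKM in NSC, and 8.85, 7.76 and 9.24 FPKM in Astrocytes. Glioblastoma was lowest and NSC next, while MIM-Astrocytes and Astrocytes overlapped. Glioblastoma, at 3.34 ± 0.48 FPKM, differed by -0.44 from NSC at 4.89 ± 0.83 FPKM (SE 0.12, adjusted p = 0.00671 by limma), by -1.15 from Astrocytes at 8.62 ± 0.77 FPKM (adjusted p = 5.6e-06 by limma) and by -1.22 from MIM-Astrocytes at 9.08 ± 0.76 FPKM (adjusted p = 5.52e-06 by limma). The 4 targets that were low in Glioblastoma in all 3 comparisons were thus Ccng1, Phlda3, Zmat3 and Trp53inp1, and their 12 calls held under every alternative tried.

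In MIM-Astrocytes against Astrocytes the targets stood on the other side. Of the 9 genes 6 passed the test, where 61.4% of all genes did, and the groups did not overlap in these 6, as in 64.5% of all. Cdkn2a was lower, Trp53 was not called, and of the 7 targets 5 were higher and 2 were not called, while 34.8% of all genes were higher and 26.6% lower. The median log2 difference was 0.80 over the targets and 0.09 over all genes. Ccng1 was 2.24-fold higher (log2 difference 1.15, adjusted p = 6.71e-07 by limma) and Phlda3 2.00-fold (0.94, adjusted p = 1.85e-05 by limma). Cdkn1a was 1.85-fold higher (0.84, adjusted p = 1.74e-07 by limma) and Trp53inp1 1.77-fold (0.80, adjusted p = 6.85e-06 by limma). The fifth, Mdm2, was higher by 0.23 (adjusted p = 0.00465 by limma), the call that ended under other scalings. Bbc3 (0.01, adjusted p = 0.92 by limma) and Zmat3 (0.07, adjusted p = 0.639 by limma) were not called. With a common FPKM total, which lowers differences from Astrocytes, 4 targets were higher and 1, Bbc3, lower (-0.26, adjusted p = 0.0354), and Trp53 was called lower too (-0.26, adjusted p = 0.0238).

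Against NSC, 6 of the 9 genes passed in MIM-Astrocytes (55.9% of all genes), the groups of 7 did not overlap (62.3% of all), and 4 targets were higher, none lower and 3 not called, where 31.0% of all genes were higher and 24.9% lower. Ccng1 was 3.63-fold higher (log2 difference 1.83, adjusted p = 5.3e-08 by limma) and Cdkn1a 3.55-fold (1.67, adjusted p = 5.08e-09 by limma). Phlda3 was higher by 0.91 (adjusted p = 3.45e-05 by limma) and Zmat3 by 0.78 (adjusted p = 0.000255 by limma). Bbc3 did not pass (-0.24, adjusted p = 0.0764 by limma), though its groups did not overlap, and it passed in the other direction from these 4 under median-of-ratios and quantile scaling (-0.29 and -0.28) and in a fit of these 6 libraries alone (-0.24, adjusted p = 0.0372). Trp53inp1 differed by 0.08 (adjusted p = 0.384 by limma) and Mdm2 by -0.03 (adjusted p = 0.69 by limma).

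Between NSC and Astrocytes, neither of them tumour cells nor cells in MIM, 6 of the 9 genes passed (71.2% of all genes), the groups of 7 did not overlap (73.0% of all), and among the targets 2 were higher, 3 lower and 2 not called, where 37.7% of all genes were higher and 33.4% lower. Trp53inp1 was higher in NSC by 0.72 (adjusted p = 1.14e-05 by limma), and Mdm2 by 0.26 (adjusted p = 0.00185 by limma). Cdkn1a was lower in NSC by a log2 difference of -0.83 (adjusted p = 1.33e-07 by limma), Zmat3 by -0.71 (adjusted p = 0.000294 by limma) and Ccng1 by -0.68 (adjusted p = 2.9e-05 by limma). Bbc3 was at the edge of the threshold (0.26, adjusted p = 0.0504 by limma) with groups that did not overlap, and it passed under several alternatives, among them pseudocounts of 0.1 and 0.5 FPKM (adjusted p = 0.0465 and 0.0482) and without NSC replicate 3 (adjusted p = 0.0493) or Astrocytes replicate 1 (adjusted p = 0.0482). The split became 1 higher and 4 lower with a common FPKM total and 3 higher and 3 lower under quantile normalization. The 7 targets thus did not share 1 order of the groups: MIM-Astrocytes ranked first for Cdkn1a, Ccng1, Phlda3, Zmat3 and Trp53inp1, and Glioblastoma for Mdm2 and Bbc3, by mean FPKM. The first place was not separated from the next by the test for Zmat3, Trp53inp1 and Mdm2.

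A wider list of 35 other known p53 targets was read beside the 7. All 35 had a line in the tables and 31 were tested, whereas the other 4 were too weakly expressed. Against NSC, 14 were higher in Glioblastoma, 13 lower and 4 not called (median log2 difference -0.04, against 0.19 over all genes), where 44.8% of all genes were higher and 25.1% lower. Other scalings moved the 14 and 13 to 12 and 16, to 13 and 15, and to 11 and 15. Against Astrocytes, 15 were higher, 11 lower and 5 not called (median 0.20, against 0.23 over all genes). The shares of all genes were 47.0% higher and 31.3% lower. Other scalings moved the split to 14 and 14, to 14 and 13, and, with a common FPKM total, to 9 and 15. Against MIM-Astrocytes, 9 were higher, 16 lower and 6 not called (median -0.22, against 0.13 over all genes), beside shares of 41.5% higher and 28.3% lower over all genes tested. In MIM-Astrocytes against Astrocytes, 20 were higher, 8 lower and 3 not called (median 0.51, against 0.09 over all genes), where 34.8% of all genes were higher and 26.6% lower, and 15 were higher and 10 lower with a common FPKM total.

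Eda2r, a death-domain receptor of the TNF receptor family, was the wider list's most reduced gene in the tumour cells relative to NSC. It stood at 0.0349, 0.0364 and 0.0288 FPKM in Glioblastoma, 20.8, 20.6 and 18.7 FPKM in MIM-Astrocytes, 17.9, 16.0 and 15.4 FPKM in NSC, and 5.11, 5.17 and 4.56 FPKM in Astrocytes. The tumour libraries were all near 0 and the groups did not overlap. The log2 difference of Glioblastoma was -4.07 from NSC (adjusted p = 2.15e-11 by limma), -2.52 from Astrocytes (adjusted p = 1.56e-10 by limma) and -4.34 from MIM-Astrocytes (adjusted p = 1.3e-11 by limma).

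Ak1, an adenylate kinase, stood at 3.06, 3.00 and 3.79 FPKM in Glioblastoma, 61.7, 77.6 and 68.1 FPKM in MIM-Astrocytes, 18.1, 18.3 and 15.2 FPKM in NSC, and 72.6, 81.5 and 62.1 FPKM in Astrocytes. The tumour libraries were again the lowest, by -2.09 from NSC, -4.09 from Astrocytes and -4.03 from MIM-Astrocytes (adjusted p = 1.4e-07, 3.89e-10 and 1.04e-09 by limma). Fas, the death receptor, averaged 0.423 ± 0.107 FPKM in Glioblastoma against 12.5 ± 1.16 FPKM in Astrocytes (log2 difference -3.25, adjusted p = 1.69e-10 by limma). Its mean was 0.942 FPKM in NSC and 3.13 FPKM in MIM-Astrocytes. Abhd4, a lipid hydrolase, averaged 41.9 ± 1.85 FPKM in Glioblastoma against 112 ± 5.15 FPKM in NSC (-1.40, adjusted p = 1.64e-08 by limma). Ddb2, which recognises ultraviolet damage in DNA, averaged 3.04 ± 0.17 FPKM in Glioblastoma against 7.74 ± 0.48 FPKM in NSC (-1.11, adjusted p = 9.55e-07 by limma). The means of Ddb2 in MIM-Astrocytes and Astrocytes, 3.36 and 3.55 FPKM, were close to that of Glioblastoma. Sesn1, a stress-induced restraint on mTORC1, averaged 10.2 ± 0.16 FPKM in Glioblastoma against 51.7 ± 4.19 FPKM in Astrocytes (-2.23, adjusted p = 1.58e-09 by limma).

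The wider list also held genes that were higher in the tumour cells than in another group. Plk2, a polo-like kinase, stood at 68.8, 66.5 and 70.4 FPKM in Glioblastoma, 11.4, 12.2 and 10.4 FPKM in MIM-Astrocytes, 17.8, 17.6 and 15.9 FPKM in NSC, and 1.48, 2.18 and 1.55 FPKM in Astrocytes. It was the first of the higher genes in each comparison of Glioblastoma, with log2 differences of 1.94 from NSC, 4.68 from Astrocytes and 2.50 from MIM-Astrocytes (adjusted p = 3.13e-08, 2.34e-11 and 4.76e-09 by limma). Relative to NSC it was followed by Tigar, a regulator of glycolysis (log2 difference 1.08), Pml, the scaffold of nuclear bodies (0.95), and Sesn2, a relative of Sesn1 (0.87). Relative to Astrocytes the next were Btg2, an antiproliferative gene (1.65), Plk3, another polo-like kinase (1.21), and Psrc1, a spindle protein (1.20). Relative to MIM-Astrocytes they were Fdxr, a mitochondrial reductase (0.83), Xpc, a damage sensor of nucleotide excision repair (0.83), and Gadd45a, a stress-response gene (0.78). Of the genes named here, Plk2, Tigar, Pml, Plk3 and Xpc had their highest mean in Glioblastoma. Sesn2 and Psrc1 had it in MIM-Astrocytes, Btg2 in NSC, and Fdxr and Gadd45a in Astrocytes.

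In MIM-Astrocytes against Astrocytes, Plk2 (log2 difference 2.18), Psrc1 (2.05), Eda2r (1.82) and the BH3-only gene Pmaip1, which encodes NOXA (1.54), were the most increased of the wider list. Pmaip1 averaged 3.06 ± 0.24 FPKM in MIM-Astrocytes and 0.393 ± 0.067 FPKM in Astrocytes. The most reduced were Gadd45a (log2 difference -2.70), Fas (-1.71), Fdxr (-1.11) and Sesn1 (-1.04). Gadd45a averaged 7.91 ± 0.96 FPKM in MIM-Astrocytes and 56.6 ± 4.86 FPKM in Astrocytes, and its log2 difference had an adjusted p of 2.29e-09 by limma.

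**Figure D3:**
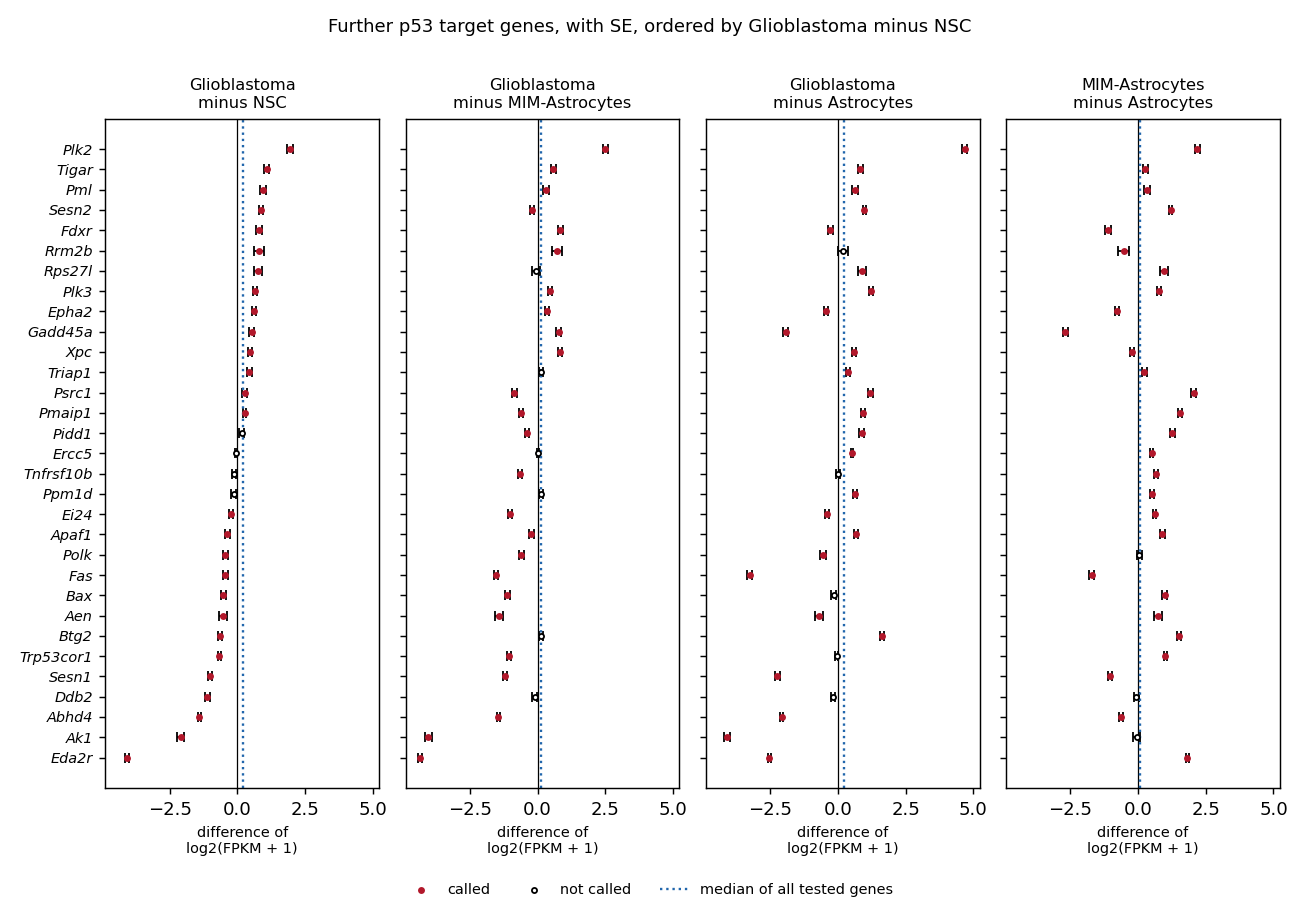
Difference of log2(FPKM + 1) between groups (horizontal axis) for the 31 tested genes of the wider list (vertical axis), with SE bars, filled where the adjusted p was below 0.05. Eda2r and Ak1 lie far to the left and Plk2 far to the right in the Glioblastoma panels, with genes on both sides of 0 in every panel.

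Genes that act on p53 or on Cdkn2a formed a list of 25, of which 24 had a line and 21 were tested. Against NSC, 11 were higher in Glioblastoma, 5 lower and 5 not called, close to the 44.8% of all genes that were higher and the 25.1% that were lower (median log2 difference 0.24, against 0.19 over all genes). Other scalings moved the first 2 of these counts to 9 and 7, to 8 and 7, and to 9 and 6. Chek1 and Chek2, kinases that relay DNA damage, averaged 25.4 ± 1.24 and 11.0 ± 0.28 FPKM in Glioblastoma, against 4.50 ± 0.43 and 3.59 ± 0.22 FPKM in NSC (log2 differences 2.27 and 1.39, adjusted p = 5.53e-09 and 5.73e-07 by limma). Twist1, a transcription factor able to restrain the Arf and p53 response, averaged 4.87 ± 0.53 FPKM in Glioblastoma against 0.406 ± 0.093 FPKM in NSC (2.06, adjusted p = 4.25e-09 by limma). The most reduced were Crebbp, an acetyltransferase of p53 (-1.50), Hipk2, a kinase of p53 (-0.87), and Trp53bp2, a partner that steers p53 to apoptotic targets (-0.64). Atm, the kinase of double-strand breaks, averaged 15.8 ± 1.52 FPKM in Glioblastoma, 10.9 ± 0.15 FPKM in MIM-Astrocytes, 12.1 ± 0.98 FPKM in NSC and 5.06 ± 0.16 FPKM in Astrocytes. Its difference between Glioblastoma and NSC (0.35, adjusted p = 0.00127 by limma) lost its call under the 3 other scalings.

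Mdm4, the partner of Mdm2 that blocks p53, averaged 36.0 ± 1.23 FPKM in Glioblastoma, 30.3 ± 1.93 FPKM in MIM-Astrocytes, 31.8 ± 2.02 FPKM in NSC and 27.2 ± 1.95 FPKM in Astrocytes. Its log2 differences in Glioblastoma, 0.17, 0.39 and 0.24 from NSC, Astrocytes and MIM-Astrocytes (adjusted p = 0.0462, 0.000406 and 0.0101 by limma), all lost their calls under the 3 other scalings, and that from NSC changed sign in them. Dmtf1, an activator of Arf, averaged 48.0 ± 4.98 FPKM in Glioblastoma against 34.3 ± 4.16 FPKM in NSC (0.48, adjusted p = 0.00178 by limma, lost under quantile normalization). Bmi1, the Polycomb protein that represses Cdkn2a, averaged 42.3 ± 3.29 FPKM in Glioblastoma, 40.7 ± 5.26 FPKM in MIM-Astrocytes, 35.7 ± 4.29 FPKM in NSC and 18.1 ± 1.63 FPKM in Astrocytes. Between Glioblastoma and NSC it was not called (0.24, adjusted p = 0.0832 by limma). The p53 relatives Trp63 and Trp73 stayed at or below 0.239 and 0.154 FPKM in every library and were not tested.

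The neighbours of Cdkn2a on chromosome 4 were read beside it. Cdkn2b encodes p15, an inhibitor of the same kinases as Ink4a, and stood at 20.0, 21.8 and 22.1 FPKM in Glioblastoma, 5.82, 5.61 and 6.27 FPKM in MIM-Astrocytes, 4.15, 3.74 and 3.49 FPKM in NSC, and 13.3, 14.7 and 11.8 FPKM in Astrocytes. No group overlapped with another, and Glioblastoma was highest. The log2 differences of Glioblastoma were 2.22 from NSC, 0.65 from Astrocytes and 1.69 from MIM-Astrocytes (adjusted p = 4.37e-09, 3.19e-05 and 3.04e-08 by limma), of which that from Astrocytes lost its call with a common FPKM total. Like Cdkn2a, Cdkn2b was lower in MIM-Astrocytes than in Astrocytes (-1.04, adjusted p = 1.54e-06 by limma), but unlike it, NSC held less than MIM-Astrocytes did (0.53 higher in MIM-Astrocytes, adjusted p = 0.000343 by limma). Mtap, a gene of methionine salvage that is often deleted together with CDKN2A in human tumours, averaged 11.2 ± 0.22 FPKM in Glioblastoma, 5.53 ± 0.21 FPKM in MIM-Astrocytes, 7.22 ± 0.59 FPKM in NSC and 5.49 ± 0.59 FPKM in Astrocytes. It was higher in Glioblastoma by 0.57, 0.91 and 0.90 than in NSC, Astrocytes and MIM-Astrocytes (adjusted p = 5.07e-05, 8.26e-07 and 1.6e-06 by limma).

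The targets of Ink4a and of the retinoblastoma arm were measured too. With the neighbours of Cdkn2a they formed a list of 13 genes. In Glioblastoma against NSC, 10 of these were higher, 2 lower and 1 not called, where 44.8% of all genes were higher and 25.1% lower. The median log2 difference was 0.90, against 0.19 over all genes. The 3 named below are part of this list. Cdk4 averaged 440.4 ± 15.1 FPKM in Glioblastoma, 270 ± 29.0 FPKM in MIM-Astrocytes, 421 ± 31.8 FPKM in NSC and 86.7 ± 6.66 FPKM in Astrocytes, and Glioblastoma overlapped with NSC (0.07, adjusted p = 0.553 by limma). Cdk6 was weaker, at 3.61 ± 0.20 FPKM in Glioblastoma, 0.457 ± 0.111 FPKM in MIM-Astrocytes, 1.71 ± 0.29 FPKM in NSC and 0.585 ± 0.107 FPKM in Astrocytes, and was higher in Glioblastoma than in NSC (0.77, adjusted p = 2.55e-05 by limma). Rb1, the retinoblastoma gene, averaged 22.1 ± 2.83 FPKM in Glioblastoma, 39.2 ± 4.96 FPKM in MIM-Astrocytes, 36.3 ± 2.11 FPKM in NSC and 46.6 ± 2.22 FPKM in Astrocytes. It was lower in Glioblastoma by -0.70 relative to NSC, -1.05 relative to Astrocytes and -0.80 relative to MIM-Astrocytes (adjusted p = 0.000157, 4.89e-06 and 5.8e-05 by limma).

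**Figure D4:**
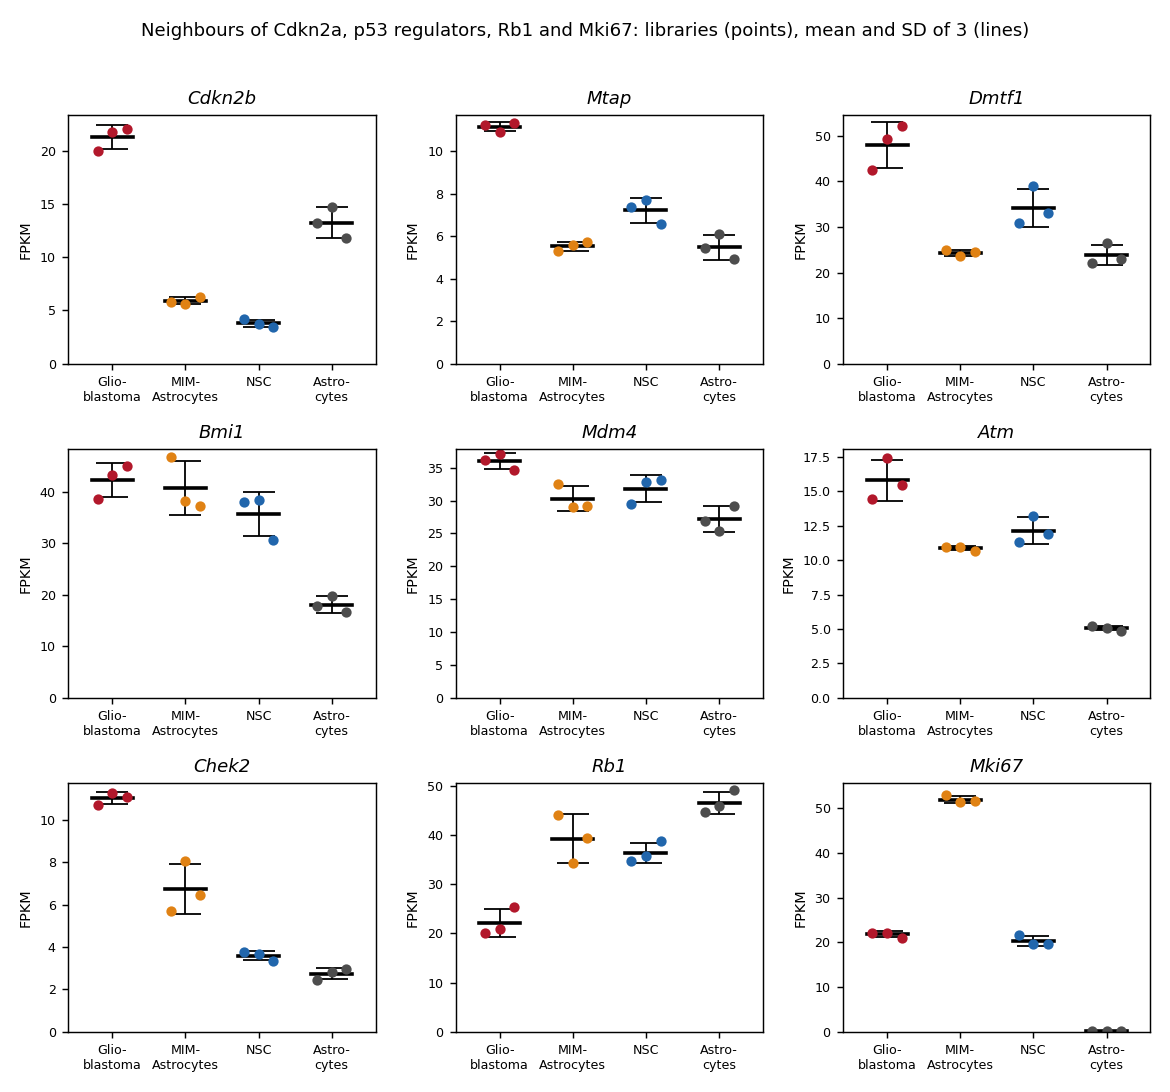
FPKM per library of genes that lie beside Cdkn2a or act with it and with p53, 1 panel per gene, groups on the horizontal axis, a point per library, a bar at the mean and whiskers for the SD of 3 libraries. Cdkn2b and Mtap stand highest in Glioblastoma (21.3 and 11.2 FPKM), as Cdkn2a does, while Rb1 stands lowest there (22.1 FPKM).

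Genes of the late cell cycle that p53 is known to repress through p21 and the DREAM complex were read against Cdkn1a. Of 15 such genes, 13 were higher in Glioblastoma than in NSC, 1 lower and 1 not called, where 44.8% of all genes were higher (median log2 difference 1.03, against 0.19 over all genes). In MIM-Astrocytes against Astrocytes all 15 were higher, with a median log2 difference of 4.45 against 0.09 over all genes, of which 34.8% were higher, beside the higher Cdkn1a. All 15 were also higher in Glioblastoma than in Astrocytes, where 47.0% of all genes were (median 3.85 against 0.23). There Cdkn1a was not called (log2 difference -0.05, adjusted p = 0.338 by limma) and was called lower under the other scalings. Against MIM-Astrocytes, Glioblastoma was higher for 2, lower for 9 and not called for 4, where 41.5% of all genes were higher and 28.3% lower. The median log2 difference was -0.27, against 0.13 over all genes. Under other scalings Glioblastoma was higher for 1 and lower for 12. Mki67, the proliferation marker, averaged 21.8 ± 0.69 FPKM in Glioblastoma, 51.9 ± 0.89 FPKM in MIM-Astrocytes, 20.3 ± 1.16 FPKM in NSC and 0.112 ± 0.015 FPKM in Astrocytes. Ccnb1, the mitotic cyclin, followed at 30.2 ± 4.04, 48.1 ± 0.94, 19.1 ± 0.67 and 0.297 ± 0.083 FPKM in the same groups, and Top2a, the DNA topoisomerase, at 183 ± 5.60, 150 ± 6.08, 47.9 ± 4.86 and 0.944 ± 0.050 FPKM. Cdkn1a, at 20.8 FPKM, was thus highest in the group in which Mki67 and Ccnb1 were highest too.

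Genes whose pattern over the 12 libraries was most like that of Cdkn2a were Maged1 and Cfap43 (Pearson r = 0.997 each) and Camkk2 (r = 0.997), on log2(FPKM + 1). Camkk2, for example, averaged 48.3 FPKM in Glioblastoma, 3.15 FPKM in MIM-Astrocytes, 4.23 FPKM in NSC and 5.11 FPKM in Astrocytes. For Trp53 they were Igf2r (r = 0.995), Gfod1 (r = 0.995) and Fignl2 (r = 0.992), and Igf2r averaged 24.1 FPKM in Glioblastoma, 6.66 FPKM in MIM-Astrocytes, 8.98 FPKM in NSC and 6.49 FPKM in Astrocytes. The 12 libraries fall into 4 groups and the 3 tumour libraries stand apart, so these values describe which genes share that step and are not a test.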

How the data were processed

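Total RNA of 12 mouse libraries was sequenced, 3 in each of 4 groups. The deposited values are FPKM per gene with an interval and a status, made by the authors with Cufflinks (version not given) on GRCm38, per the submitters' processing notes and the file headers. The aligner, the annotation and the strandedness are not given in the sources used here, so signal of overlapping genes on opposite strands could not be separated. No other gene of the tables overlaps any of the 9. Each table had 53989 lines for 53932 identifiers, and the values of the 45 identifiers on more than 1 line were added. Gene coordinates are those of the files, 1-based. Depth is not known, so precision is given as the deposited interval, which covers errors of counting and of assigning reads.

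A gene entered the tests with at least 1 FPKM in 3 or more libraries and the status OK in each of the 12, and that status rule removed 29 genes. Values were taken as log2(FPKM + 1) and a linear model with 1 mean for each group was fitted by limma (version 3.58.1, R version 4.3.3). Its variance prior follows the mean expression, and 8 degrees of freedom remain. Tests were two-sided, adjusted over 16982 genes by Benjamini and Hochberg in each of 6 comparisons, and called at an adjusted p below 0.05. The 3 libraries of a group allow no exact permutation p below 0.1 for a single value. Folds are ratios of mean FPKM. The fit was also run on simulated data of independent normal values with few changed genes. That setting is unlike these data, where most genes were called, so it does not bear on the calls given here. Reading and summaries used pandas 2.3.3 and NumPy 2.4.6 under Python 3.11.15, and plots matplotlib 3.10.9.

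Alternatives were other pseudocounts (0.1 or 0.5 FPKM), testing without the filter or with a minimum mean of 5 FPKM, scaling by the median of ratios, by quantiles or to a common total, no rule on status, a constant variance prior, a fit of the 6 libraries compared, array weights, a replicate block and leaving out each library. The 9 genes and all gene lists were chosen with earlier results of these data known. Genes of the wider target list were named when called without overlap of the groups, up to 4 with the largest log2 difference each way, and of the regulators up to 3, beside a fixed set (Cdkn2b, Mtap, Mdm4, Dmtf1, Bmi1, Atm, Chek2, Trp63, Trp73, Rb1, Cdk4, Cdk6, Mki67, Ccnb1 and Top2a). Likeness was taken over tested protein-coding genes.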

Additional observations from a re-analysis of the deposited data

How the results depend on the processing

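Of 54 values (9 genes in 6 comparisons) 42 were called, and 35 of these kept direction and call under every alternative. The 7 others were Bbc3 and Mdm2 in Glioblastoma against Astrocytes, Bbc3 in Glioblastoma against NSC, Mdm2 in MIM-Astrocytes against Astrocytes, Trp53 in MIM-Astrocytes against NSC, and Trp53 and Mdm2 in NSC against Astrocytes. Signs turned as follows, with values for scaling by the median of ratios, by quantiles and to a common total in that order where all 3 turned. Mdm2 gave -0.13, -0.20 and -0.10 in Glioblastoma against NSC, and -0.046, -0.047 and -0.13 against MIM-Astrocytes. In MIM-Astrocytes against Astrocytes, Trp53 gave -0.060, -0.045 and -0.26, Bbc3 -0.076, -0.036 and -0.26 (and -0.037 with array weights), and Zmat3 -0.034, -0.010 and -0.24. A common total alone turned Mdm2 in Glioblastoma against Astrocytes (-0.23), in MIM-Astrocytes against Astrocytes (-0.092) and against NSC (0.029), and Trp53 (-0.055), Mdm2 (-0.12) and Bbc3 (-0.068) in NSC against Astrocytes. Phlda3 there gave -0.026 with the median of ratios and -0.34 with a common total. Trp53inp1 gave -0.064 under quantile normalization in MIM-Astrocytes against NSC. Leaving out 1 library gave -0.021 to 0.13 for Trp53 and -0.072 to 0.062 for Bbc3 in MIM-Astrocytes against Astrocytes, and -0.025 to 0.097 for Phlda3 in NSC against Astrocytes. A mean of at least 5 FPKM leaves fewer genes to test, and leaves Bbc3 out. It left 7681, 8446 and 7665 genes called in Glioblastoma against NSC, Astrocytes and MIM-Astrocytes, 6807 in MIM-Astrocytes and 7745 in NSC against Astrocytes. Of the wider target list it left 15 called in Glioblastoma against MIM-Astrocytes, 14 in MIM-Astrocytes against NSC and 15 in NSC against Astrocytes. The share of all calls that were higher was 64.1%, 60.0% and 59.5% in Glioblastoma against NSC, Astrocytes and MIM-Astrocytes, and became 52.8%, 36.9% and 44.4% with a common total. Same-numbered libraries deviated together by correlations of only -0.058 to 0.097, and no label pairs them. With a replicate block, 8, 8 and 8 of the 9 genes were called in the Glioblastoma comparisons (NSC, Astrocytes, MIM-Astrocytes) and 6, 6 and 6 in the others (MIM-Astrocytes against Astrocytes and NSC, and NSC against Astrocytes), and 0 of the 54 calls changed. The cause of these changes was not tested. A common total divides by coding and noncoding signal together, and the coding share of the FPKM sum differed between groups. Which scaling is right cannot be told from FPKM alone, so the small differences listed here depend on it.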

Other observations

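Genes of the mitochondrial apoptosis pathway, through which Bbc3 acts, formed a list of 13, all of them tested. In Glioblastoma against NSC, 8 were higher and 5 lower, where 44.8% of all genes were higher and 25.1% lower, with a median log2 difference of 0.48 against 0.19 over all tested genes. The genes named here were chosen after their values were seen. Cycs, which encodes cytochrome c, averaged 53.1 ± 5.60 FPKM in Glioblastoma and 12.5 ± 0.91 FPKM in NSC (log2 difference 2.00, adjusted p = 5.67e-08 by limma). Bid, a BH3-only gene like Bbc3, averaged 8.80 ± 0.75 FPKM in Glioblastoma and 2.22 ± 0.05 FPKM in NSC (1.60, adjusted p = 1.05e-08 by limma). Bcl2l11, which encodes the BH3-only protein BIM, went the other way, with 5.18 ± 0.48 FPKM in Glioblastoma and 15.0 ± 1.10 FPKM in NSC (-1.37, adjusted p = 2.79e-07 by limma). The survival genes Bcl2l1 (13.3 against 7.89 FPKM in NSC) and Mcl1 (29.0 against 23.4 FPKM) also had higher means in Glioblastoma. Bax (72.4 against 105 FPKM in NSC) and the caspase gene Casp9 (2.09 against 4.93 FPKM) had lower means there.

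In MIM-Astrocytes against Astrocytes, 7 of the 13 were higher, 3 lower and 3 not called, where 34.8% of all genes were higher and 26.6% lower, with a median log2 difference of 0.32 against 0.09 over all genes. The split became 6 higher and 5 lower with median-of-ratios scaling and 4 higher and 5 lower with a common FPKM total. Bax, a pore-forming effector that is also on the wider list of p53 targets, averaged 159 ± 6.54 FPKM in MIM-Astrocytes and 80.4 ± 7.82 FPKM in Astrocytes (log2 difference 0.98, adjusted p = 4.66e-06 by limma). The survival genes Bcl2l1 and Mcl1 were lower. Bcl2l1 averaged 10.1 ± 0.44 FPKM in MIM-Astrocytes and 33.9 ± 2.15 FPKM in Astrocytes (-1.65, adjusted p = 1.86e-09 by limma). Mcl1 averaged 21.7 ± 0.29 FPKM in MIM-Astrocytes and 43.3 ± 3.47 FPKM in Astrocytes (-0.96, adjusted p = 4.66e-07 by limma).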
